A study of Homo sapiens with 32 samples.

Results

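Interferon-stimulated genes are the genes that cells switch on when interferon, a secreted warning signal of virus infection, binds its receptors. The set described here held 49 such genes, taken from a list of symbols of well-known members of the response. A row was found for 48 of them by matching symbols to the Ensembl identifiers of the deposited table of 19023 genes, and TRIM22 was not analysed here. The cells were RPE-1, 1 immortalised line derived from human retinal pigment epithelium, with a wild-type (WT) genotype. All groups had been kept for 18 h without serum. They were then collected at 0 h of serum or after 5 h, 10 h or 15 h of serum. At each time 4 biological replicates were measured by RNA-seq of total RNA and 4 by Ribo-seq, which counts the short RNA fragments protected by ribosomes (footprints) and so reads ribosomes on mRNA. The groups analysed here include none kept starved to the later times, so the effect of serum and that of elapsed time cannot be told apart, and none is labelled as treated with interferon.

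Type I interferons bind the IFNAR receptor, whose JAK1 and TYK2 kinases phosphorylate STAT proteins, among them STAT2. With IRF9 these form the complex ISGF3, which binds the interferon-stimulated response element (ISRE) in promoters, while interferon gamma acts on the GAS element. Many of these genes are also expressed at a low level without infection, and several are targets of IRF1 or other factors without interferon.

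Promoter sequences of 6 genes are shown because their footprints followed different courses in serum although 5 of them share the core of the ISRE. IFIT1 and ISG15 were lower at every later time, IFIT5 changed little next to IFIT1, OAS3 ended above 0 h, GBP1 was higher at 5 h and lower afterwards, and IRF1 carries a GAS-type match in place of the ISRE core. Each run is read 5′ to 3′ on the gene's strand and ends at the base before the RefSeq start (GRCh38.p14), with the ISRE core on either strand (GAAA, any 2 bases and GAAA, or when reversed TTTC, any 2 bases and TTTC) in capitals, or, for IRF1, the match to TTCNNNGAA.
IFIT1: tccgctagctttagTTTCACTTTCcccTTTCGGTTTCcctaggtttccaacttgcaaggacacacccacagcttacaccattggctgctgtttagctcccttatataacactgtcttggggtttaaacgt
IFIT5: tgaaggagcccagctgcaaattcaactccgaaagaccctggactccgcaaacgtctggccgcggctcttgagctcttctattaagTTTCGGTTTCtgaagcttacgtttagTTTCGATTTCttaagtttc
OAS3: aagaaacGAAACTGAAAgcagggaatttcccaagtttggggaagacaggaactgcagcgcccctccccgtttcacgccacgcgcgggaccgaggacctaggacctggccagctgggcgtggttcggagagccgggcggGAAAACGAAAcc
ISG15: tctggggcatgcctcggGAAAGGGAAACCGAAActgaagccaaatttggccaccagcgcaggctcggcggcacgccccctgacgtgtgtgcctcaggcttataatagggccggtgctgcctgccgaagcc
GBP1: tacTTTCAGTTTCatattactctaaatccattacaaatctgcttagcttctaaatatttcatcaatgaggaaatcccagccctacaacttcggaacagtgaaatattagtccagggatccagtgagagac
IRF1: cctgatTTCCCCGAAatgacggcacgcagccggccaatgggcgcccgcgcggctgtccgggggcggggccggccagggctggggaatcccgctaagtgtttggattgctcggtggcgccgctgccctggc

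IFIT1 (chr10:89392493-89392622, plus strand) and IFIT5 (chr10:89414438-89414567, plus strand) are shown over 130 bases, as are ISG15 (chr1:1013367-1013496, plus strand), GBP1 (chr1:89065209-89065338, minus strand) and IRF1 (chr5:132490774-132490903, minus strand). OAS3 (chr12:112938324-112938473, plus strand) is shown over 150 bases. RefSeq promoter entries, from 250 bases before to 50 bases after a start, were matched for 38 of the 49 genes. The ISRE core, searched on both strands with overlapping matches kept, was found in 25 of these 38 (65.8%), against 4.38% of 27305 genes with an entry. The GAS letters TTCNNNGAA, which read the same on both strands and may overlap an ISRE match, were found in 13 (34.2%), against 9.38% of all genes. TATAAA on either strand was found in 4 (10.5%), against 14% of all genes. Such matches describe letters only, and the set was named for genes known to respond to interferon.

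The deposited values were read counts. Total counts ran from 595851 to 1107470 in the 16 RNA libraries and from 2851423 to 9901322 in the 16 footprint libraries. Levels are given below as CPM, edgeR's counts scaled by library size and TMM factor, and a level is relative to the other genes of its library, since the labels name no spike-in. Errors of levels are SD over n = 4 libraries. A log2 change is the later time over 0 h unless another pair is named, with its standard error, and a gene was called when its edgeR quasi-likelihood p was under 0.05 after Benjamini-Hochberg adjustment across every gene in the fit. Of the 48 genes, 40 had enough counts to be tested in footprints and 33 in RNA. All 10 retinal pigment epithelium markers had a row, and their footprints summed to 976.3 to 1160 CPM at 0 h, 1547 to 1777 CPM at 5 h, 1375 to 1419 CPM at 10 h and 1161 to 1224 CPM at 15 h, with TYR at 0 at 10 h and 15 h and RPE65 at 0 in RNA at 0 h, 5 h and 10 h. The keratins KRT8 and KRT18 made up most of that sum and were called higher in TMM-scaled footprints at 15 h than at 0 h (0.33 and 0.19). In RNA KRT18 was called lower (-0.41) and KRT8 was not called (-0.10). The footprint rises are smaller than the drop in the all-gene median at 15 h, from -0.008 under TMM to -0.353 on plain library totals. The other 5 of the 7 markers tested in footprints were lower at 15 h, among them OTX2 (-1.42 ± 0.11) and MERTK (-2.16 ± 0.16). The part of this fall in the set's changes was not tested. The 10 markers of blood and immune cells summed to 83.6 to 102.3 CPM at 0 h and 88.4 to 94.9 CPM at 15 h, with LYZ at 0 in all 16 footprint libraries. Most of that sum was 1 gene, CD68, with a mean of 88.3 CPM at 0 h and 86.3 CPM at 15 h, while PTPRC had 0.471 CPM at 0 h. The 6 markers of fibroblasts and endothelium, of which the receptor PDGFRA was the 1 gene tested, summed to 56.8 to 67.5 CPM at 0 h, 28.6 to 39.7 CPM at 5 h, 10.9 to 13.7 CPM at 10 h and 4.87 to 5.91 CPM at 15 h. PDGFRA made up most of this sum, with a mean of 61.3 CPM at 0 h and 4.89 CPM at 15 h. The sum fell along with the set, and its part in the set's changes was not tested. In such bulk libraries, fewer cells expressing a gene and less RNA per cell cannot be told apart.

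The set as a whole was lower in serum. The share of footprint counts held by its genes was 0.376 ± 0.01004% at 0 h, 0.176 ± 0.0113% after 5 h, 0.135 ± 0.00563% after 10 h and 0.134 ± 0.00342% after 15 h. The libraries of 5 h, 10 h and 15 h did not overlap those of 0 h, and the mean shares at 10 h and 15 h were 0.359 and 0.356 times that of 0 h. These shares are of plain library totals, without the TMM factor. On such totals the median log2 change of all genes in footprints was itself -0.358, -0.301 and -0.353 at 5 h, 10 h and 15 h. In RNA the share was 0.2602 ± 0.0123% at 0 h, 0.169 ± 0.0116% after 5 h, 0.1095 ± 0.00818% after 10 h and 0.109 ± 0.0223% after 15 h. One library, RNA 15 h replicate 1, stood at 0.142% against 0.0961% to 0.0989% in the other 3 of that time, and 398 of its counts came from OASL alone. Leaving OASL out of every library gave 0.0981 ± 0.00383% at 15 h and 0.256 ± 0.0145% at 0 h. The median log2 change of all genes in RNA on plain totals was -0.135, -0.115 and -0.206 at 5 h, 10 h and 15 h.

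At 5 h against 0 h, 29 of the 40 genes tested in footprints were called lower and 4 higher, where 75.7% of all 10959 genes were called and 40.5% were called lower. The median log2 change of the 40 was -0.74, against -0.07 over all genes. By 10 h, 34 were lower and 1 higher (78.4% of all genes called, 39% lower), with a median of -1.34 against -0.02. By 15 h, 35 were lower and 1 higher (79.7% of all genes called, 39.6% lower), with a median of -1.33 against -0.01. Since most genes were called in footprints, a stricter test asked for a change past 1.5-fold. It kept 21 lower and 1 higher at 5 h (34.3% of all genes), 29 lower and 0 higher at 10 h (41.1%), and 29 lower and 1 higher at 15 h (44%). The 4 footprint libraries of 15 h lay below all 4 of 0 h for 34 of the 40, against 35.5% of all genes.

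RNA, with fewer counts and a larger spread between replicates, gave fewer calls, most of them lower. At 5 h, 13 of 33 genes were called lower and 1 higher, against 35.9% of all 8775 genes called and 16.7% called lower. At 10 h, edgeR called 23 lower and 0 higher (44.8% of all genes called, 21.5% lower), with 23 at an unadjusted p under 0.05 in either direction. DESeq2 called 22 lower and 0 higher (42.8% of all genes called). At 15 h, 22 were lower and 1 higher (50.9% of all genes called, 25.4% lower). The medians were -0.46, -1.11 and -1.16, against -0.03, -0.03 and -0.04 over all genes. The contrasts share the 0 h libraries, so their counts are not separate evidence.

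**Figure D1:**
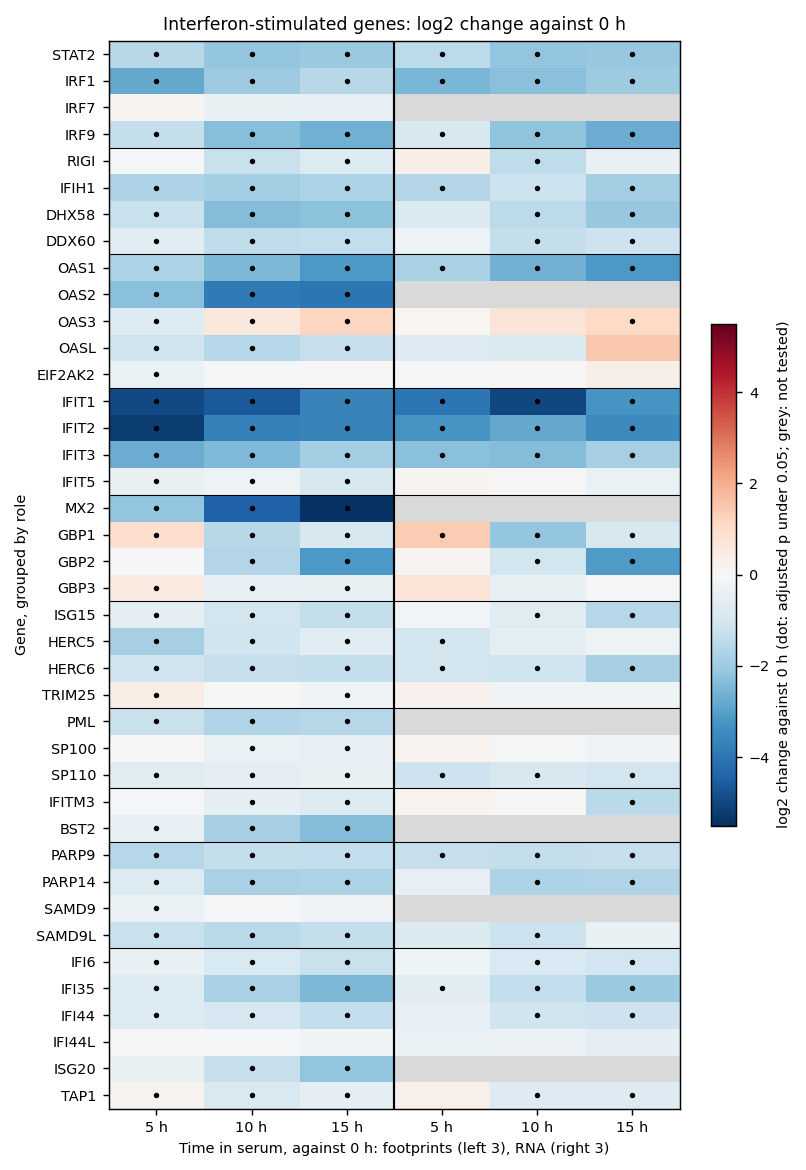
Log2 change against 0 h of the 40 genes tested in footprints, in 10 groups by role, at 5 h, 10 h and 15 h of serum (left 3 columns footprints, right 3 columns RNA; colour scale in log2 units, dots mark an adjusted p under 0.05, grey marks genes not tested in RNA). Blue, lower than 0 h, fills most of the map, from -5.45 for MX2 footprints at 15 h upwards. The few called rises are GBP1, GBP3, TRIM25 and TAP1 at 5 h and OAS3 at 10 h and 15 h. When libraries are scaled to plain totals, TAP1 turns to a fall and TRIM25 footprints shrink to 0.11.

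The factors that transmit the signal fell together, except IRF7. STAT2, a subunit of ISGF3, had 518, 515, 523 and 462 CPM at 0 h, 183, 159, 176 and 187 at 5 h, 121, 115, 119 and 103 at 10 h and 124, 129.6, 124 and 113 at 15 h. Every library after 0 h lay below every 0 h library, and the change was -1.52 ± 0.06 at 5 h, -2.13 ± 0.06 at 10 h and -2.04 ± 0.06 at 15 h (edgeR adjusted p = 6.95e-29). In RNA STAT2 had 226, 340, 435 and 247 CPM at 0 h, 80.1, 153, 112 and 107 at 5 h, 54.7, 85.6, 57.1 and 76.7 at 10 h and 47.9, 88.8, 93.3 and 70.2 at 15 h, again with no overlap with 0 h at any later time, and changed by -2.07 ± 0.24 at 15 h. IRF9, the subunit of ISGF3 that recognises the ISRE, had 43.7, 43.7, 45.3 and 44.9 CPM at 0 h, 17.9, 14.1, 19.2 and 19.1 at 5 h, 9.86, 7.75, 7.78 and 10.1 at 10 h and 7.13, 7.33, 7.08 and 7.12 at 15 h. Each group lay below the one before it without overlap. The change reached -2.63 ± 0.11 at 15 h in footprints and -2.73 ± 0.31 in RNA.

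IRF1, a transcription factor that interferon gamma and other cytokines induce, had the sharpest early fall of this group. It had 133, 126, 149 and 108 CPM at 0 h, 21.2, 17.7, 16.2 and 18.8 at 5 h, 31.97, 36.2, 31.2 and 27.7 at 10 h and 45.7, 47.3, 45.9 and 38.99 at 15 h. The 5 h libraries were the lowest and the later ones climbed part of the way back, all of them still below 0 h. The footprint change was -2.80 ± 0.10 at 5 h, -2.01 ± 0.09 at 10 h and -1.54 ± 0.09 at 15 h, and 15 h stood 1.26 ± 0.11 above 5 h. RNA of IRF1 had 87.2, 79.3, 99.3 and 52.9 CPM at 0 h, 6.82, 13.9, 18.6 and 14.98 at 5 h, 26.4, 15.2, 13.9 and 8.92 at 10 h and 22.9, 22.2, 20.5 and 16.5 at 15 h. All later libraries again lay below 0 h, but those of 5 h and 15 h overlapped. It changed by -2.50 ± 0.29 at 5 h and -1.96 ± 0.27 at 15 h, and its 15 h to 5 h difference was not called (0.54 ± 0.33). IRF7, the factor that amplifies interferon production, had few footprints, with 2.36, 3.18, 2.54 and 3.73 CPM at 0 h, 3.56, 3.31, 3.38 and 3.04 at 5 h, 2.401, 2.15, 2.05 and 2.48 at 10 h and 3.22, 1.31, 2.21 and 2.62 at 15 h. All groups overlapped 0 h, and its change against 0 h was not called at any time (-0.45 ± 0.25 at 15 h). USP18, which removes ISG15 from proteins and restrains IFNAR2, had 20 footprint counts over the 4 libraries of 0 h and was not tested.

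The cytosolic RNA sensors fell at different times. IFIH1 (MDA5), which binds long double-stranded RNA, had 43.4, 45.2, 44.2 and 42.2 CPM at 0 h, 14.6, 10.9, 14.8 and 13.3 at 5 h, 11.5, 13.2, 12.1 and 10.3 at 10 h and 14.9, 13.9, 13.4 and 10.6 at 15 h. It was low from 5 h on, with no overlap with 0 h, at -1.70 ± 0.10 at 5 h and -1.74 ± 0.10 at 15 h. RIGI, which binds RNA with a 5′ triphosphate, had 74.2 ± 1.31 CPM at 0 h, 67.8 ± 6.15 after 5 h, 31.5 ± 1.15 after 10 h and 44.04 ± 1.93 after 15 h. It was not called at 5 h (-0.13 ± 0.06), fell by 10 h (-1.23 ± 0.07) and remained lower at 15 h (-0.75 ± 0.07). DHX58 (LGP2), which tunes both sensors, had 12.1, 15.7, 13.4 and 14.1 CPM at 0 h, 5.27, 5.13, 6.76 and 6.33 at 5 h, 1.895, 3.099, 2.16 and 3.64 at 10 h and 3.22, 2.63, 3.54 and 2.25 at 15 h. All 12 later libraries lay below the 0 h libraries, and the change at 10 h was -2.40 ± 0.17. The helicase DDX60 fell as well, at -0.61 ± 0.07, -1.39 ± 0.07 and -1.37 ± 0.07 for 5 h, 10 h and 15 h.

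Enzymes that act on viral RNA divided. The OAS proteins make the second messenger that activates RNase L when they meet double-stranded RNA. OAS1 had 24.2, 28.01, 29.9 and 28.4 CPM at 0 h, 9.49, 8.27, 5.91 and 9.12 at 5 h, 6.82, 3.34, 4.86 and 4.97 at 10 h and 5.75, 2.74, 2.43 and 2.75 at 15 h. The 0 h libraries were highest and did not overlap any later group, with -1.76 ± 0.15 at 5 h and -3.17 ± 0.18 at 15 h. At 15 h its replicate 1 stood at 5.75 CPM, above the other 3. OAS2 had 9 footprint counts over the 4 libraries of 15 h, against 100 counts over those of 0 h (-3.99 ± 0.38, called).

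OAS3, the largest OAS protein, was the 1 gene of the set called higher in footprints at 10 h and 15 h. Its footprints had 49.9, 49.2, 51.8 and 48.8 CPM at 0 h, 29.1, 29.5, 29.3 and 32.6 at 5 h, 74.2, 75.6, 77.5 and 69.7 at 10 h and 119.8, 109, 116 and 107 at 15 h. The 4 groups did not overlap one another, with 5 h lowest and 15 h highest. Against 0 h the change was -0.73 ± 0.07 at 5 h, 0.57 ± 0.06 at 10 h and 1.17 ± 0.06 at 15 h (edgeR adjusted p = 2.91e-20). OAS3 RNA had 10.8, 19.8, 12.8 and 5.88 CPM at 0 h, 11.9, 12.9, 17.5 and 11.8 at 5 h, 17.2, 27.6, 15.4 and 23.2 at 10 h and 13.5, 40.7, 33.2 and 21.7 at 15 h. These libraries overlapped between 0 h and each later time, and RNA was called only at 15 h (1.09 ± 0.35, edgeR adjusted p = 0.0128), not at 5 h (0.09 ± 0.39) or 10 h (0.73 ± 0.36).

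EIF2AK2, the kinase PKR that stops translation initiation when it binds double-stranded RNA, was called lower at 5 h and not at 10 h or 15 h under TMM scaling. Its footprints had 192, 183, 205 and 194 CPM at 0 h, 166, 133, 153 and 144 at 5 h, 195, 188, 196 and 171 at 10 h and 180.2, 204, 205 and 213 at 15 h. Only the 5 h libraries lay apart, below the 0 h ones (-0.38 ± 0.06), and neither 10 h (-0.04 ± 0.06) nor 15 h (0.05 ± 0.06) was called. On plain library totals its mean was lower at all 3 times, with log2 ratios of -0.67, -0.33 and -0.29 to 0 h. OASL, an OAS relative without that enzyme activity, was singled out after its values were seen. Its RNA had 20.3, 35.5, 80.8 and 27.9 CPM at 0 h, 11.9, 41.6, 19.8 and 21.4 at 5 h, 25.3, 19.02, 43.2 and 10.7 at 10 h and 414, 9.25, 16.6 and 16.5 at 15 h. One library of 15 h lay far above all others, and the change at 15 h was not called (1.49 ± 1.03, edgeR adjusted p = 0.251). Without that library the estimate turned to -1.44 ± 0.51 and was called (edgeR adjusted p = 0.0271). OASL footprints in replicate 1 of 15 h were at 2.30 CPM, beside 2.19, 0.996 and 0.750 CPM in the other 3, and the footprint change was -1.26 ± 0.32.

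**Figure D2:**
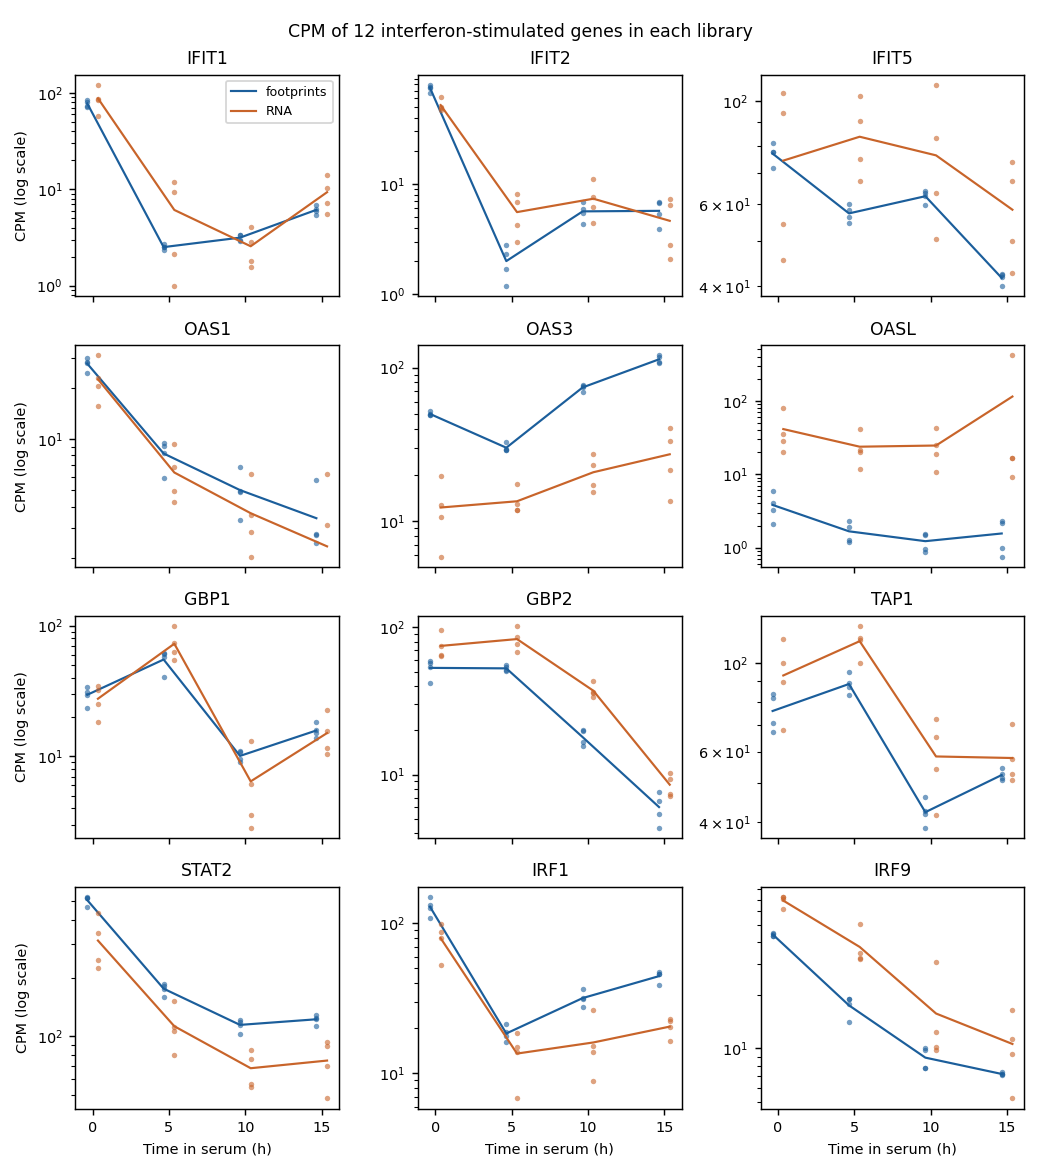
CPM (log axis) of 12 genes against hours in serum, with 1 point per library and a line through the group means, footprints in blue and RNA in orange; 2 RNA libraries of OAS1 at 15 h with 0 counts have no point. IFIT1, IFIT2 and IRF1 drop at 5 h and stay below 0 h, OAS1, GBP2 and IRF9 go on falling to 15 h, GBP1 peaks at 5 h, OAS3 footprints dip and then climb to 113 CPM, and 1 OASL RNA library at 15 h sits at 414 CPM.

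The IFIT proteins, of which IFIT1 binds viral RNA lacking the host cap methylation and blocks its translation, held the largest early falls. IFIT1 footprints had 72.97, 71.9, 84.4 and 81.3 CPM at 0 h, 2.503, 2.32, 2.68 and 2.53 at 5 h, 2.91, 3.34, 3.35 and 2.98 at 10 h and 5.98, 6.896, 6.195 and 5.37 at 15 h. The 0 h libraries stood far above all later ones, which climbed again between 10 h and 15 h without overlap. The change was 30.9-fold lower at 5 h (-4.95 ± 0.11), -4.62 ± 0.11 at 10 h and -3.66 ± 0.10 at 15 h. IFIT1 RNA had 122, 57.4, 85.1 and 86.8 CPM at 0 h, 11.9, 0.9903, 9.31 and 2.14 at 5 h, 4.05, 2.85, 1.54 and 1.78 at 10 h and 10.4, 5.55, 14.1 and 7.23 at 15 h. RNA of the 0 h libraries was likewise above every later library, and the lowest group was 10 h.

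IFIT2 footprints had 79.8, 67.5, 76.6 and 74.9 CPM at 0 h, 1.19, 2.32, 1.69 and 2.79 at 5 h, 5.94, 6.91, 5.402 and 4.31 at 10 h and 5.29, 6.896, 6.75 and 3.87 at 15 h. They were lowest at 5 h, 37.1-fold below 0 h, and the 10 h and 15 h libraries overlapped each other while staying above all of 5 h. IFIT2 RNA had 62.1, 49.01, 46.8 and 49.99 CPM at 0 h, 6.82, 2.97, 8.15 and 4.28 at 5 h, 11.2, 7.61, 6.17 and 4.46 at 10 h and 7.28, 2.78, 6.39 and 2.06 at 15 h. It was lower at all 3 later times without overlap, and the 15 h libraries overlapped those of 5 h and 10 h. IFIT3, which stabilises IFIT1, had 189, 187, 208 and 177 CPM at 0 h, 28.7, 25.7, 27.6 and 31.8 at 5 h, 38.7, 37.3, 34.1 and 32.8 at 10 h and 49.7, 61.6, 54.2 and 43.6 at 15 h, the same order of groups with a smaller change (-2.73 ± 0.08 at 5 h and -1.85 ± 0.08 at 15 h). IFIT5 had 77.7, 81.3, 77.5 and 71.7 CPM at 0 h, 56.3, 54.6, 60.1 and 58.2 at 5 h, 63.4, 62.4, 63.96 and 59.8 at 10 h and 39.99, 41.8, 42.4 and 42.2 at 15 h. It was lower at all 3 times with no overlap, at -0.42 ± 0.06, -0.30 ± 0.06 and -0.88 ± 0.06, and no RNA change of IFIT5 against 0 h was called (-0.36 ± 0.27 at 15 h). Footprints of IFIT1, IFIT2 and IFIT3 were higher at 15 h than at 5 h, by 1.28 ± 0.18, 1.54 ± 0.23 and 0.88 ± 0.09, while IFIT5 was lower (-0.46 ± 0.06).

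Among the interferon-induced GTPases, the MX proteins, which block entry and transport of viral nucleocapsids, were scarce. MX2 fell, with log2 changes of -2.15 ± 0.20 at 5 h, -4.45 ± 0.27 at 10 h and -5.45 ± 0.31 at 15 h and with 6 footprint counts over the 15 h libraries against 188 counts over those of 0 h. MX1 was not tested, and its footprints were at 1.77, 1.698, 0.846 and 0.811 CPM at 0 h, 0.264, 0.497, 0.282 and 0.633 at 5 h, 0.505, 0.238, 0.108 and 0.331 at 10 h and 0.6896, 0.219, 0.553 and 0.375 at 15 h. Only 24 counts over the 4 libraries stood behind the 0 h values, which lay above those of every later library.

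The GBP proteins, which coat intracellular bacteria and vacuoles and answer mainly to interferon gamma, followed another course. GBP1 footprints had 33.97, 29.7, 31.1 and 23.5 CPM at 0 h, 57.3, 40.4, 61.7 and 60.9 at 5 h, 9.603, 10.7, 10.9 and 9.11 at 10 h and 15.2, 15.9, 18.3 and 13.9 at 15 h. All 4 libraries of 5 h lay above 0 h, and all of 10 h and 15 h lay below it, at 0.93 ± 0.12, -1.52 ± 0.15 and -0.87 ± 0.14 for 5 h, 10 h and 15 h. GBP1 RNA had 34.6, 25.03, 18.4 and 32.4 CPM at 0 h, 54.5, 74.3, 98.9 and 63.1 at 5 h, 13.2, 2.85, 6.17 and 3.57 at 10 h and 10.4, 15.7, 11.5 and 22.7 at 15 h. The 5 h libraries lay above and the 10 h libraries below all of 0 h, while those of 15 h overlapped 0 h. The RNA change was 1.40 ± 0.29, -2.11 ± 0.39 and -0.86 ± 0.34, and the last of these was no longer called when any 1 of 5 libraries (RNA 0 h replicates 1 and 4, RNA 15 h replicates 1, 2 and 3) was left out. GBP3 footprints had 33.7, 36.5, 37.6 and 37.96 CPM at 0 h, 52.8, 45.8, 57.4 and 55.2 at 5 h, 27.3, 25.03, 26.3 and 30.1 at 10 h and 25.3, 30.7, 26.2 and 26.9 at 15 h. As for GBP1, the 5 h libraries lay above 0 h and the later ones below it. The change was 0.53 ± 0.08 at 5 h and -0.42 ± 0.09 at 15 h.

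GBP2 held its level for 5 h and then dropped. Its footprints had 41.95, 54.1, 58.9 and 57.3 CPM at 0 h, 55.1, 50.3, 53.5 and 51.7 at 5 h, 16.6, 19.7, 15.7 and 20.03 at 10 h and 6.67, 7.66, 5.42 and 4.37 at 15 h. The 5 h and 0 h libraries overlapped (-0.03 ± 0.09, not called), those of 10 h and 15 h lay below both, and 15 h was lowest (-3.17 ± 0.12). GBP2 RNA had 95.5, 64.7, 63.8 and 74.99 CPM at 0 h, 68.2, 86.2, 76.8 and 102 at 5 h, 33.5, 36.1, 43.2 and 35.7 at 10 h and 9.36, 7.403, 10.2 and 7.23 at 15 h, in the same order without overlap from 5 h on, and changed by -3.13 ± 0.23 at 15 h. TAP1, which pumps peptides into the endoplasmic reticulum for MHC class I, had 67.1, 81.7, 70.9 and 83.9 CPM at 0 h, 83.3, 94.99, 87.3 and 89.2 at 5 h, 38.7, 46.1, 42.5 and 41.9 at 10 h and 54.5, 52.8, 51.4 and 50.98 at 15 h. Libraries of 5 h overlapped those of 0 h, and those of 10 h and 15 h lay below both. Footprints of TAP1 were called higher at 5 h (0.21 ± 0.07), a direction that turned to -0.07 on plain library totals, and lower at 10 h (-0.85 ± 0.07) and 15 h (-0.55 ± 0.07). Relative to TMM, plain totals lowered the median of all genes in footprints to -0.36, -0.30 and -0.35 at the 3 times, and TAP1 at 5 h was the 1 called change against 0 h in the set whose direction turned there. Estimates that were not called and lay near 0, such as those of TRIM25 at 10 h and EIF2AK2 at 15 h, also turned.

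ISG15, the ubiquitin-like protein that is joined to newly made proteins, was lower at each later time. Its footprints had 35.5, 39.04, 41.3 and 37.8 CPM at 0 h, 26.1, 26.97, 28.4 and 26.4 at 5 h, 19.7, 20.2, 18.2 and 17.6 at 10 h and 18.6, 16.5, 14.4 and 14.4 at 15 h. No library of a later time overlapped 0 h, and the change was -0.52 ± 0.08, -1.03 ± 0.09 and -1.30 ± 0.09 at 5 h, 10 h and 15 h. ISG15 RNA had 102, 80.3, 101 and 95.6 CPM at 0 h, 69.9, 92.1, 100.1 and 81.3 at 5 h, 44.6, 59.9, 77.1 and 57.1 at 10 h and 28.1, 27.8, 37.1 and 35.1 at 15 h. Its 5 h libraries overlapped 0 h and were not called (-0.13 ± 0.17), while 10 h and 15 h lay below it (-1.57 ± 0.19 at 15 h). HERC5, the main ligase for ISG15, had 30.4, 38.6, 33.7 and 38.1 CPM at 0 h, 11.5, 10.6, 8.59 and 9.75 at 5 h, 16.4, 17.4, 17.8 and 15.2 at 10 h and 24.4, 24.2, 24.6 and 22.99 at 15 h. It was lowest at 5 h (-1.81 ± 0.10) and regained part of its level by 15 h (-0.57 ± 0.09), without overlap between the groups. HERC6 footprints were at changes between -1.32 and -1.09 at the 3 times, and were called lower at 15 h than at 5 h. Its RNA was also called lower at 15 h than at 5 h, with means of 20.9 and 37.2 CPM. TRIM25, the ligase that helps activate RIGI, had 93.9, 89.8, 99.3 and 96.7 CPM at 0 h, 131, 109.6, 133 and 129 at 5 h, 96.7, 96.2, 99.4 and 96.2 at 10 h and 86.4, 79.6, 84.7 and 78.97 at 15 h. The 5 h libraries were above all others (0.40 ± 0.06), 10 h was not called (0.03 ± 0.06) and 15 h was below 0 h (-0.21 ± 0.06). On plain library totals TRIM25 kept a log2 ratio of mean CPM of only 0.11 at 5 h. Its RNA was not called at any time.

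Of the PML body proteins, which gather in nuclear bodies that silence incoming viral DNA, PML had 99.9 ± 4.03 CPM at 0 h, 43.1 ± 5.16 after 5 h, 31.8 ± 2.33 after 10 h and 34.2 ± 1.95 after 15 h in footprints and fell, at -1.21 ± 0.07 for 5 h and -1.56 ± 0.07 for 15 h. SP100 was not called at 5 h (-0.02 ± 0.06) and fell by 15 h (-0.44 ± 0.06), and SP110 fell at both times (-0.66 ± 0.09 and -0.40 ± 0.08). At the membrane, BST2 (tetherin), which holds budding virus on the cell surface, had 4.14, 6.37, 7.11 and 6.33 CPM at 0 h, 4.61, 4.97, 3.801 and 4.69 at 5 h, 1.39, 1.55, 1.95 and 1.99 at 10 h and 0.919, 1.204, 1.22 and 1.25 at 15 h. The libraries of 10 h and 15 h lay below all of 0 h (-2.37 ± 0.24 at 15 h), while the 5 h ones overlapped 0 h and the call at 5 h (-0.45 ± 0.18) was lost under DESeq2 and without any 1 of footprint replicates 2, 3 and 4 of 0 h and replicate 3 of 5 h. IFITM3, which stops virus fusion in endosomes, had 67.4, 74.5, 56.0 and 65.5 CPM at 0 h, 63.8, 62.1, 61.95 and 53.2 at 5 h, 43.6, 43.99, 47.2 and 44.7 at 10 h and 34.9, 42.8, 38.6 and 39.6 at 15 h. Libraries of 5 h overlapped those of 0 h, and those of 10 h and 15 h lay below both. It was not called at 5 h (-0.12 ± 0.07) and fell to 39.0 ± 3.24 CPM at 15 h, against 65.8 ± 7.61 CPM at 0 h. IFITM2 had 0 counts in all 32 libraries and IFITM1 had 48 footprint counts in all, and the sources used here do not give how reads shared among these near-identical genes were assigned, so IFITM3 is uncertain. The same limit holds for the GBP genes.

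The mono-ADP-ribosyltransferases PARP9 and PARP14 fell at all 3 times, PARP9 to -1.55 ± 0.08 and -1.33 ± 0.08 and PARP14 to -0.76 ± 0.06 and -1.74 ± 0.06 on the log2 scale at 5 h and 15 h. SAMD9L, a restraint on translation and growth, had 85.97, 91.9, 99.3 and 83.7 CPM at 0 h, 42.4, 37.7, 37.2 and 37.1 at 5 h, 31.97, 37.9, 31.2 and 27.8 at 10 h and 33.6, 37.99, 37.2 and 34.9 at 15 h. All later libraries lay below 0 h, at -1.23 ± 0.07, -1.48 ± 0.08 and -1.32 ± 0.08. Its neighbour SAMD9 was called lower only at 5 h (-0.38 ± 0.12) and not called at 15 h (-0.20 ± 0.11). IFI35, a leucine zipper protein, had 114, 117, 119.9 and 107 CPM at 0 h, 69.96, 61.2, 67.4 and 70.4 at 5 h, 34.2, 30.04, 31.2 and 37.4 at 10 h and 20.9, 19.9, 22.1 and 18.7 at 15 h, each group below the one before it without overlap, and ended at -2.49 ± 0.08 in footprints and -2.02 ± 0.23 in RNA. IFI6, a protein of mitochondria and the endoplasmic reticulum, IFI44 and the exonuclease ISG20 ended lower, at -1.23 ± 0.08, -1.34 ± 0.10 and -2.15 ± 0.29, and IFI44L was not called (-0.21 ± 0.19). The 8 genes with too few counts in both assays were IFI27, IFITM1, IFITM2, MX1, USP18, XAF1, RSAD2 and CMPK2, and RSAD2 (viperin) had 1 footprint count and 0 RNA counts in all libraries.

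Put together, 26 of the 40 were lower in footprints at all 3 times, against 27.7% of all genes. GBP1, GBP3 and TAP1 were higher at 5 h (TAP1 not on plain totals) and lower at 10 h and 15 h. TRIM25 was higher at 5 h (by only 0.11 on plain totals) and lower at 15 h. EIF2AK2 and SAMD9 were called lower at 5 h only, under TMM scaling. IFITM3, RIGI, ISG20, SP100 and GBP2 were lower at 10 h and 15 h but not called at 5 h, and IFI44L and IRF7 were not called at any time. The remaining gene was OAS3.

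The step from 5 h to 10 h still changed most of the set, with 25 lower and 8 higher in footprints (61.7% of all genes called) and 11 lower and 0 higher in RNA (19.7%, and 12 at an unadjusted p under 0.05). From 10 h to 15 h, 10 were lower and 8 higher in footprints (41%), and 3 lower and 1 higher in RNA (5.91%). The balance in RNA changed to 2 lower and 3 higher under DESeq2 (6.34%) and to 3 lower and 3 higher without RNA 10 h replicate 1 (8%). At 15 h against 5 h, 26 were lower and 9 higher in footprints (70.8%), and 14 lower and 1 higher in RNA (32.5%). The 9 higher in footprints were OAS3, IFIT2, IFIT1, IRF1, HERC5, IFIT3, EIF2AK2, SP110 and PARP9, from 1.90 ± 0.06 for OAS3 to 0.22 ± 0.09 for PARP9. The same 5 h libraries enter the comparison of 5 h with 0 h, in which all 9 were lower. The largest further falls from 5 h to 15 h in footprints were MX2 (-3.30 ± 0.42) and GBP2 (-3.13 ± 0.12).

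Over the 33 genes tested in both, 13 were lower in both at 5 h, 23 at 10 h and 22 at 15 h, against 15.2%, 19.1% and 21.2% of all 8736 genes tested in both. None of the 33 was called in opposite directions in the assays, as few genes were at any time (0.618%, 0.939% and 1.63% of all). As a description across genes, which are not replicates, the log2 changes had a Pearson r of 0.96, 0.94 and 0.88 and a Spearman rho of 0.94, 0.92 and 0.89 at 5 h, 10 h and 15 h. Translational efficiency, the footprint change beyond the RNA change, was tested in 1 edgeR fit over both assays (interaction of assay and time). It was lower for IFIT2 at 5 h (-1.96 ± 0.50, edgeR adjusted p = 0.0111) and for SAMD9L at 15 h (-1.04 ± 0.31, edgeR adjusted p = 0.02297), with 6.47% and 11% of 8736 genes called at those times. At 10 h edgeR called 0 of the 33 (7.23% of all genes), with 8 at an unadjusted p under 0.05, and DESeq2 called 1, GBP2. The IFIT2 call rested on RNA of 5.55 ± 2.35 CPM at 5 h and ended when RNA 5 h replicate 3 was left out (-1.66), and that of SAMD9L ended without any 1 of RNA 0 h replicates 2 and 3 and RNA 15 h replicates 1 and 4, with estimates between -0.96 and -0.81. The median interaction of the 33 was -0.34, -0.18 and -0.19 at 5 h, 10 h and 15 h, against -0.06, -0.04 and -0.04 over all genes.

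**Figure D3:**
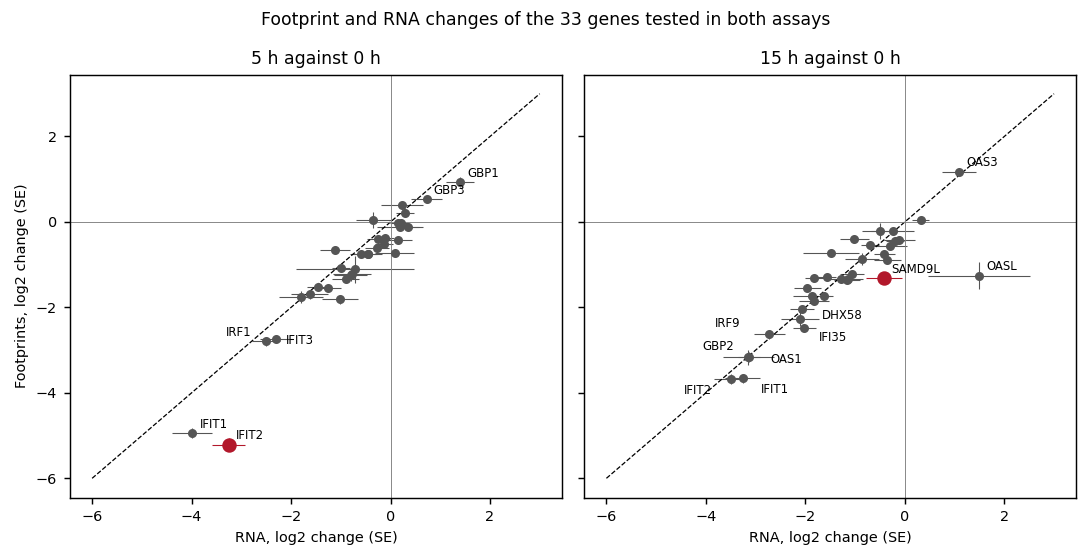
Footprint log2 change (vertical axis) against RNA log2 change (horizontal axis) of the 33 genes tested in both assays, at 5 h (left) and 15 h (right) against 0 h, with standard errors and the line of equal change. Most points lie below 0 on both axes and near the line, and the larger red points mark a called change of translational efficiency, IFIT2 at 5 h and SAMD9L at 15 h.

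Before serum, the genes already differed in level and in footprints per RNA. Per kilobase of coding length, the highest footprint levels at 0 h were those of IFITM3 (236 ± 27.3 CPM per kb), IFI6 (223 ± 25.4) and STAT2 (202 ± 11.4), whose libraries overlapped, followed by IFI35 (143 ± 6.99), IRF1 (141 ± 18.8) and IFIT3 (135 ± 9.14), which overlapped as well. The median over genes with at least 20 counts was 19.01 CPM per kb. The ratio of footprint CPM to RNA CPM at 0 h, in which length divides out, had a median of 1.23 over the 39 genes with at least 20 counts in both assays, against 0.809 over 9234 genes, and 30 of the 39 lay above that value. IFITM3 (7.58), PML (5.88), OAS3 (4.06), EIF2AK2 (3.71) and TRIM25 (3.07) had the highest ratios, and OASL (0.0928) and MX1 (0.199) the lowest, against a range of 0.196 to 3.20 between the 5th and 95th percentiles of all genes. Several of these ratios rested on few RNA counts at 0 h, 29 for IFITM3, 56 for PML, 41 for OAS3 and 20 for MX1. The others had 168 (EIF2AK2), 97 (TRIM25) and 127 (OASL). No spread of the ratios was computed, so their order is uncertain.

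Several of these genes lie side by side in the genome, which allowed neighbours to be compared within the same libraries (RefSeq, GRCh38.p14). On chromosome 10, IFIT1 (89392623 to 89406487) and IFIT5 (89414568 to 89420997) are 8081 bases apart. Their footprint levels were about equal at 0 h, with a mean log2 ratio of IFIT1 over IFIT5 of -4.48 ± 0.027 at 5 h and 0.009 ± 0.170 at 0 h, a difference of -4.49. On chromosome 12, OAS1 (112906962 to 112933219) and OAS3 (112938474 to 112973251) are 5255 bases apart, and the log2 ratio of OAS1 over OAS3 was -5.11 ± 0.52 at 15 h and -0.85 ± 0.12 at 0 h. On chromosome 1, GBP1 (89052319 to 89065208) stood above GBP2 (89106132 to 89126114) by 1.40 ± 0.35 at 15 h and below it, at -0.84 ± 0.40, at 0 h. In each of these 3 comparisons the ratios of the 2 times did not overlap, and the exact permutation test over 4 against 4 libraries gave its smallest possible 2-sided p of 0.0286 (0.0374 after Benjamini-Hochberg adjustment over the 34 comparisons of pairs made). Of those 34, over 17 pairs within 200 kb at 5 h and 15 h, 26 had an adjusted p under 0.05. The pairs shared genes, and genes that are not neighbours were not compared in this way. With 75.7% of all genes called in footprints at 5 h and 79.7% at 15 h, the 26 are not a result particular to neighbours. IFIT1 over IFIT2 was not among the 26, with a difference of 0.33 at 5 h (exact permutation p = 0.4) and 0.07 at 15 h (exact permutation p = 0.686).

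**Figure D4:**
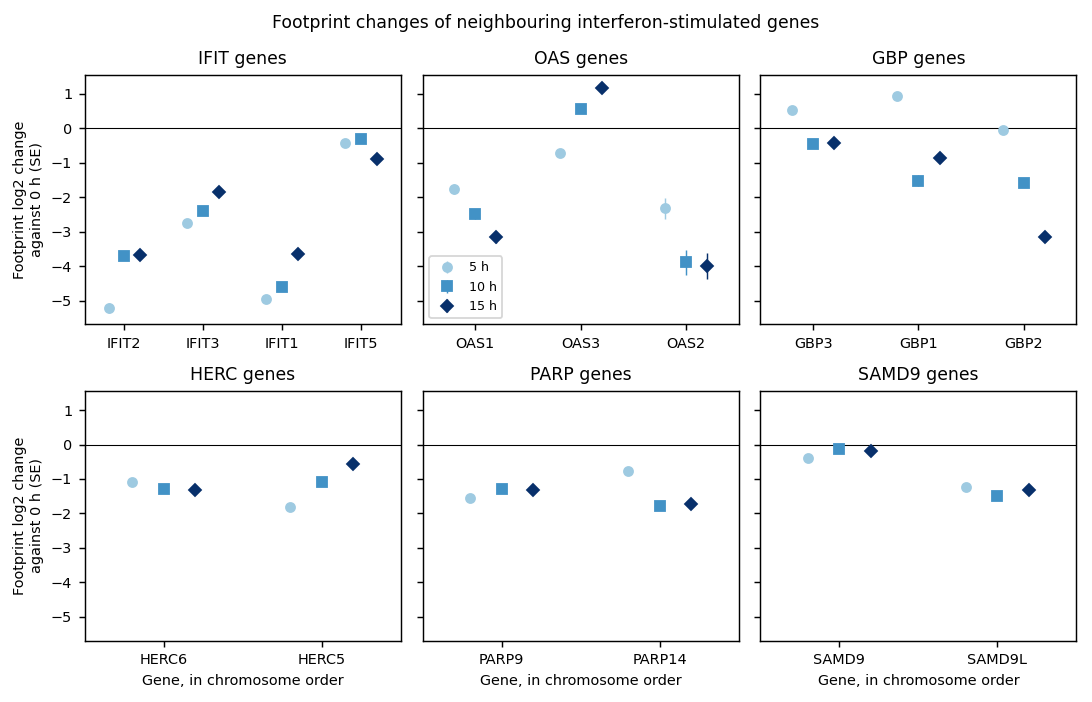
Footprint log2 change against 0 h (standard error) of genes in 6 chromosomal clusters, in chromosome order, at 5 h (circles), 10 h (squares) and 15 h (diamonds). IFIT5 stays within 1 log2 unit of 0 h beside IFIT1 at -4.95 and IFIT2 at -5.21 at 5 h, OAS3 lies above 0 at 10 h and 15 h between OAS1 and OAS2 below it, and GBP2 is the lowest of GBP1, GBP2 and GBP3 at 15 h.

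Genes with and without the ISRE core were mostly lower. Among the 21 genes with that core that were tested in footprints, 15 were lower and 3 higher at 5 h and 17 lower and 1 higher at 15 h, with medians of -0.45 and -1.23. Among the 11 with an entry but no such match, 8 were lower and 1 higher at 5 h and 11 lower and 0 higher at 15 h, with medians of -1.09 and -1.32. Of all genes, 75.7% were called and 40.5% called lower at 5 h, and 79.7% and 39.6% at 15 h. These counts were not tested against each other. IFIT1, IFIT5 and OAS3, whose printed runs hold 2 cores each, followed different courses.

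The upstream parts of the pathway were then read in footprints, where 75.7% of all genes were called at 5 h, 78.4% at 10 h and 79.7% at 15 h. Of 9 interferon ligand genes none had enough counts to be tested, and IFNB1, IFNA1, IFNG, IFNL1, IFNL2 and IFNL3 had 0 counts in all 32 libraries. IFNE, an interferon of epithelia, had 66 RNA counts and 4 footprint counts in all. Of 9 receptor and JAK kinase genes, 2 were higher and 3 lower at 5 h, and 0 higher and 5 lower at 15 h (median -0.22 at 15 h), a share called below that of all genes at both times. IFNAR2, a chain of the type I receptor, had 9.28 CPM at 5 h against 4.22 CPM at 0 h (1.14 ± 0.18, called), and was not called at 15 h (0.32 ± 0.20). IL10RB, shared by the interferon lambda and interleukin-10 receptors, was lower at 15 h (-0.91 ± 0.11). Of 11 STAT and IRF genes outside the set, 1 was higher and 8 lower at 5 h, and 1 higher and 8 lower at 15 h. STAT6, which serves interleukin-4, was at -1.33 ± 0.05 at 15 h, and IRF2BPL at -2.14 ± 0.06.

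MHC class I genes, which interferon also raises, were all called lower by 15 h. Of 15 tested, 3 were higher and 8 lower at 5 h (median -0.13), 0 higher and 13 lower at 10 h (median -0.55) and 0 higher and 15 lower at 15 h (median -0.80). The immunoproteasome subunits PSMB10 (-1.93 ± 0.06) and PSMB9 (-1.61 ± 0.07) and the non-classical HLA-F (-1.55 ± 0.22) had the largest changes at 15 h. Reads shared among HLA genes and between alleles limit HLA-F. Of 36 further interferon-induced genes, 7 were higher and 25 lower at 5 h and 5 higher and 28 lower at 15 h (medians -0.42 and -0.95), where 40.5% and 39.6% of all genes were lower. RTP4, a chaperone of membrane receptors, was at -5.28 ± 0.30 at 5 h and -4.16 ± 0.25 at 15 h, and GBP4 at -2.42 ± 0.12 and -3.21 ± 0.13.

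NF-kB subunits and feedback genes, whose pathway shares inducers and some promoters with the interferon response, were mostly higher at 5 h. Of 15 tested, 13 were higher and 0 lower at 5 h (median 1.29), 9 higher and 3 lower at 10 h (median 0.42) and 9 higher and 2 lower at 15 h (median 0.28). Among all 10959 genes, those called higher numbered 3858, 4322 and 4399 for the same comparisons, in that order. Calls in either direction took in 12 of the 15 by 10 h and 11 by 15 h. Those numbers were close to the shares of all genes called (78.4% and 79.7%), so the later number of calls does not set this list apart. TNFAIP3 (A20), which ends NF-kB signalling, had 58.5 CPM at 5 h against 2.01 CPM at 0 h (4.84 ± 0.16), and RELB had 31.7 CPM at 5 h against 2.81 CPM at 0 h (3.53 ± 0.15).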

How the data were processed

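RNA-seq and Ribo-seq (ribosome footprint) libraries of WT RPE-1 cells were grouped by assay and hours in serum as the labels give them, with 4 libraries labelled as biological replicates in each of 8 groups. Per the labels' protocols, total RNA was depleted of ribosomal RNA with Ribo-Zero Gold before library making. The authors deposited raw read counts per gene. STAR 2.5.4a, featureCounts 1.5.1 and the GRCh38 build are named in the submitters' processing notes. The sources used here do not give the strand setting, the treatment of reads shared between genes or the annotation release. The deposited gene lengths were multiples of 3 in 96.46% of genes and are called coding lengths.

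Counts were tested in 1 edgeR 4.0.16 quasi-likelihood fit per assay (robust, TMM scaling, filterByExpr, time as the factor, R 4.3.3), 2-sided, with Benjamini-Hochberg adjustment over all genes tested (8775 in RNA, 10959 in footprints) and a threshold of 0.05. Translational efficiency was the assay-by-time interaction over 32 libraries (8736 genes). Depth ran from 595851 to 1107470 counts in RNA and 2851423 to 9901322 in footprints, and the coefficient of variation between replicates beyond counting error was 0.185 for RNA and 0.0547 for footprints. No pair of replicates agreed within counting noise (lowest mean chi-square per gene 1.36 in RNA and 1.79 in footprints).

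Alternatives were RLE scaling, plain library totals, a minimum of 10 summed counts, DESeq2 1.42.0, a test past 1.5-fold (glmTreat), the replicate number as a block, only the groups compared, and leaving out each library. Neighbouring genes within 200 kb were compared by exact permutation tests on log2 ratios of their counts within a library, with 0.5 added to each count. Genes given in every library were up to 6 called rises and 6 called falls per contrast against 0 h and up to 4 each way at 15 h against 5 h, among those with a mean of at least 10 CPM and groups that did not overlap, up to 4 calls each way in translational efficiency, and 15 genes chosen by name. IFIT5 and OASL were added for their values. The genes, lists and tests were chosen with earlier results of these data known. Promoter sequences came from RefSeq (GRCh38.p14).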

Additional observations from a re-analysis of the deposited data

Results flagged for a closer look

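In 12 of 184 groups of 4 libraries checked over 25 genes, 1 library stood farther from the others than Dixon's 95% limit allows, and chance alone gives about 1 in 20 such groups. In RNA these were OASL at 15 h (replicate 1, 414 CPM), IFIH1 at 5 h (replicate 1, 13.6 CPM), IRF9 at 5 h (replicate 1, 51.1 CPM) and at 10 h (replicate 3, 30.9 CPM), TRIM25 at 15 h (replicate 2, 48.1 CPM) and SAMD9L at 5 h (replicate 2, the lowest at 15.8 CPM). In footprints they were OAS1 at 15 h (replicate 1, 5.75 CPM), OAS3 at 5 h (replicate 4, 32.6 CPM), TRIM25 at 10 h (replicate 3, 99.4 CPM), SAMD9L at 5 h (replicate 1, 42.4 CPM), STAT2 at 0 h (replicate 4, the lowest at 462 CPM) and BST2 at 15 h (replicate 1, the lowest at 0.919 CPM).

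Some genes were called in opposite directions at 5 h and 15 h against 0 h, and the difference itself was tested as 15 h against 5 h. It was a log2 change of 1.90 for OAS3 footprints, -0.61 for TRIM25 footprints, -1.80 for GBP1 footprints, -2.26 for GBP1 RNA, -0.95 for GBP3 footprints and -0.76 for TAP1 footprints, all called.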

How the results depend on the processing

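The count of genes called, in either direction, stayed within 1.5 times the reported count under RLE scaling, the 10-count minimum and the 2-group fits in every contrast run. Asking for a change past 1.5-fold left 5 calls in RNA at 10 h against 5 h (7.54% of all genes), 1 at 15 h against 10 h (1.79%) and 7 at 15 h against 5 h (13.1%). In footprints it left 14, 1 and 22 calls in the same contrasts. Of all 10959 genes there, it called 1130 higher and 783 lower, 286 higher and 111 lower, and 1516 higher and 1413 lower. In translational efficiency the 1.5-fold test left 0 calls at 5 h and 0 at 15 h against 0 h. Of all 8736 genes there, it called 152 higher and 19 lower at 5 h and 213 higher and 14 lower at 15 h. DESeq2 called 2 genes in translational efficiency at 5 h and 1 at 10 h. Leaving out 1 library at a time gave 13 to 16, 22 to 25 and 21 to 25 calls in RNA at 5 h, 10 h and 15 h against 0 h, 8 to 12 at 10 h against 5 h, 2 (without RNA 15 h replicate 1) to 6 at 15 h against 10 h and 11 to 15 at 15 h against 5 h. In footprints it gave 32 to 33, 35 to 35 and 36 to 37 against 0 h, and 30 to 33, 15 to 18 and 33 to 35 in the other contrasts. In translational efficiency it gave 0 to 3, 0 to 1 and 0 to 4. The calls there rose to 3 at 5 h without RNA or footprint 0 h replicate 1, to 1 at 10 h without either of these or RNA 10 h replicate 1, 2 or 4, and to 3 and 4 at 15 h without RNA 0 h replicate 1 or RNA 15 h replicate 3. They were 2 at 5 h without RNA 5 h replicate 2 or footprint 0 h replicate 4, and 2 at 15 h without RNA 15 h replicate 2 or footprint 0 h replicate 4. The estimate of TAP1 footprints at 5 h became -0.067 on plain totals, and that of OASL RNA at 15 h became -1.44 without RNA 15 h replicate 1, an alternative chosen after seeing the data. Replicate numbers were not a stated pairing, and the reported fits left them out. Same-numbered libraries deviated together (correlation over 0.1) in 18 of 24 pairs of RNA libraries and 3 of 24 of footprint libraries. Pairs with different numbers did so in 15 of 72 and 3 of 72. Median correlations were 0.218 for the same number against -0.088 for another in RNA, and 0.036 against -0.012 in footprints. In all, 11 of 16 RNA and 12 of 16 footprint libraries correlated best with their own number. The replicate block gave 7 calls in RNA at 15 h against 10 h, where it called 13.3% of all genes against 5.91% without it. It gave 3 calls each in translational efficiency at 5 h, 10 h and 15 h. Leaving out 1 library called 29.1% to 35.5%, 38% to 43.3% and 44.6% to 48.8% of all genes in RNA at 5 h, 10 h and 15 h against 0 h. Where no share of all genes stands beside a count in this section, that count describes the processing only. Of the 48 genes, 8 had too few counts for a test in either assay and 7 could be tested in footprints only. The causes of these changes were not tested.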

Other observations

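Negative regulators of interferon signalling moved in both directions in footprints, where 75.7%, 78.4% and 79.7% of all genes were called at 5 h, 10 h and 15 h. Of 16 tested, 2 were higher and 9 lower at 5 h, 4 higher and 7 lower at 10 h, and 4 higher and 6 lower at 15 h. SOCS1, which blocks JAK kinases, was at -1.03, -2.13 and -2.22 at 5 h, 10 h and 15 h, and the phosphatase PTPN2 was at 1.83, 1.35 and 1.09. Both had few footprints, 68 counts for SOCS1 and 149 for PTPN2 over all 16 libraries, and neither was tested in RNA. RNASEH2A, a subunit of the enzyme that removes RNA from DNA and is also used in DNA replication, was at -0.96, 1.92 and 2.63.

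Of 13 nucleic acid sensors and adaptors tested, 3 were higher and 5 lower at 5 h, and 3 higher and 6 lower at 15 h. The shares called of both lists lay below those of all genes. TLR3, the endosomal sensor of double-stranded RNA, was at -2.09, -2.67 and -2.41 at the 3 times, and IFI16, a DNA sensor, at -1.16, -1.90 and -1.63. TRAF3, an adaptor, was at 1.47, 1.18 and 0.92.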
